A study of Mus musculus with 30 samples.

Results

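Germ-free ileum at 6 weeks of age was compared with ileum of the same age from mice colonized in the preceding week, using the 6 terminal ileum libraries of these 2 groups out of 30 libraries (10 groups of 3) in the series. The members were the 3 libraries labelled as untreated, germ-free and 6 weeks old (GF) and the 3 labelled as untreated, 6 weeks old and colonized (COL); they were taken by their sample titles, and every difference is given as COL minus GF. All mice were of strain C3H/HeOuJ. GF mice had no microbiota, and COL mice were born germ-free and were given the microbiota of specific-pathogen-free (SPF) mice at the age of 5 weeks, so the GF group is both the control and the state from which COL started. The other ileum groups, SPF mice at 6 weeks and GF, COL and SPF mice at 10 weeks, served to estimate the spread and as points of comparison; the colon groups of the series were not used. RNA came from whole tissue and was read as 3′ tags near the poly(A) tail, so a level is a mean over all cells of the sample, and fewer cells of a type and less RNA per cell cannot be told apart.

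The lining of the small intestine meets bacteria through a single layer of epithelial cells. Paneth cells at the crypt base and absorptive enterocytes release antimicrobial proteins, goblet cells release mucus, and lymphocytes and plasma cells below and between the epithelial cells add cytokines and IgA. In germ-free animals several of these systems are known to be less developed, while genes of fatty acid use and drug metabolism in the epithelium are known to depend on the microbiota and on diet.

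The 6 libraries held 4310382 to 7655904 reads assigned to genes, and 13233 genes had enough reads to be tested. Levels are CPM, the counts of a gene scaled to the library total multiplied by the TMM scaling factor of that library. The factors were 1.022 to 1.095 in GF and 0.8624 to 0.9549 in COL. Relative to scaling by the total alone, they lower the levels in GF and raise those in COL. Percentages of assigned reads are given without these factors. Log2 fold changes are given ± standard error from edgeR's quasi-likelihood fit with 3 libraries a group, and p-values are adjusted over all genes tested by the Benjamini-Hochberg method. The log2 fold change is COL minus GF unless named otherwise. A gene is called, or said to rise or fall, at an adjusted p under 0.05. Nothing in the labels ties each library to a mouse of its own, so the p-values rest on the variation among these libraries, part of which may be technical. The ileal bile acid binding protein Fabp6 stood at 16020.1, 25999 and 29093 CPM in GF and 33632, 31398 and 26028 CPM in COL, while the colonic genes Car1 (highest 3.39 CPM), Aqp8 and Hoxd13 and the duodenal genes Pdx1 and Gata4 were at or near 0 in all 6 libraries. The remaining colon markers were higher in every COL than in every GF library: Car4 was at 417, 365 and 424 CPM in GF and 492, 784 and 755 CPM in COL (log2 change 0.75 ± 0.24, adjusted p = 0.085), Insl5 at 1.27, 0.149 and 0.133 CPM in GF and 3.04, 3.54 and 1.97 CPM in COL (log2 change 2.57 ± 0.85, adjusted p = 0.085), and Ang4, which Paneth cells also make, rose (values with the Paneth cell genes). Summed over the 6 colon markers the level was 432.9 to 488.2 CPM in GF and 736.9 to 1052 CPM in COL, and over the 5 duodenal markers, mostly Slc40a1, 8.41 to 14 CPM and 54.6 to 119 CPM.

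Some libraries stood apart in genes of other cell types. The summed level of 14 follicular B cell genes was 147.8 CPM in GF replicate 1 against 5.51 and 5.74 CPM in the other two GF libraries and 18.5, 23.4 and 31.4 CPM in COL. GF replicate 1 also held more of the summed T cell and intraepithelial lymphocyte genes, 59.4 CPM against 9.83 and 9.88 CPM in GF and 32.7, 33.9 and 34.3 CPM in COL. For the MHC class II genes it held 1547 CPM against 760.4 and 658.4 CPM in GF and 1290.0, 1213 and 1739 CPM in COL. GF replicates 2 and 3, by contrast, held genes of fat tissue, such as Adipoq at 0, 86.1 and 60.5 CPM in GF and 0, 4.65 and 0 CPM in COL. Fabp4 was at 7.85, 261 and 300.4 CPM in GF and 13.4, 33 and 8.79 CPM in COL. Results that rest on one of these libraries are given with and without it.

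**Figure D1:**
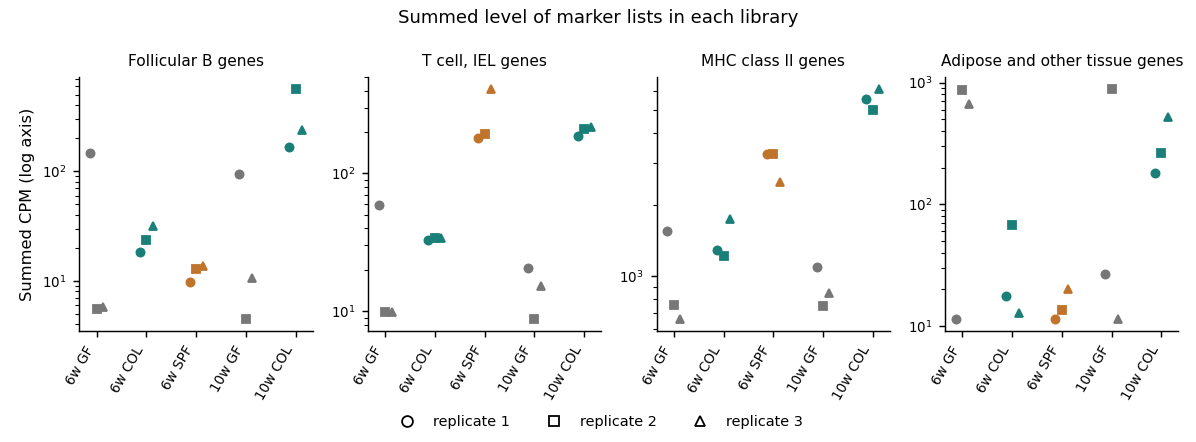
Summed CPM (log axis) of the follicular B cell, T cell and intraepithelial lymphocyte (IEL), MHC class II and adipose and other tissue lists in each ileum library of 5 groups; each symbol is a library and its shape the replicate number. GF replicate 1 at 6 weeks lies at 147.8 CPM of follicular B cell genes, above all 6-week COL libraries (18.5 to 31.4 CPM), and GF replicates 2 and 3 lie at 875.9 and 661.3 CPM of adipose and other tissue genes.

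Newly colonized ileum differed from germ-free ileum in 368 genes that were higher (2.78% of the genes tested) and 246 that were lower (1.86%), together 4.64%. The median log2 fold change over all genes tested was -0.02. The first principal component of the 6 libraries held 52.4% of the variance and placed all 3 GF libraries (-25 to -20.3) apart from all 3 COL libraries (11.5 to 32.1). Among the gene lists examined, those of antimicrobial, Paneth cell, oxidase, interferon-responsive and MHC class I genes held rises and 0 falls. Those of fatty acid oxidation and of drug metabolism held falls and 0 rises. These lists hold only a part of the called genes. Lists and members were chosen with earlier results of these data known, so their counts are descriptions. Each list count at 6 weeks stands beside the 2.78% higher and 1.86% lower among all genes tested. The 2 antimicrobial lectins Reg3b and Reg3g alone took 7.71 to 12.6% of all assigned reads in COL libraries and 0.378 to 0.788% in GF libraries. The counts depended on single libraries: without GF replicate 2, GF replicate 3, COL replicate 2 or COL replicate 3 they were 176, 226, 201 and 203 higher and 135, 155, 130 and 121 lower, and nearly all of these were among the 368 and 246 (172, 212, 195 and 195 higher; 135, 150, 116 and 115 lower).

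Of the 12 genes on the list of antimicrobial and acute-phase proteins, all of which were tested, 8 rose and 0 fell in COL, with a median log2 fold change of 2.64, unchanged when Saa2 was set at its lower bound. Reg3g (chromosome 6, 78466269 to 78468872 in mm10), a lectin that kills Gram-positive bacteria near the epithelium, was at 2447, 1502 and 1201 CPM in GF and 49099.7, 69829 and 87202 CPM in COL, 40-fold higher in COL (log2 change 5.32 ± 0.58, adjusted p = 0.00011). Its neighbour Reg3b (chromosome 6, 78370657 to 78373466), a lectin that also binds bacteria, was at 4753, 3047 and 2498 CPM in GF and 31686, 47859.6 and 59427 CPM in COL (log2 change 3.75 ± 0.43, adjusted p = 8.7e-05). The lowest COL library lay far above the highest GF library for both lectins, and COL replicate 1 was the lowest of the 3. Retnlb, a goblet cell protein with antimicrobial activity, stood at 173, 168 and 139 CPM in GF and 897, 1454 and 1834 CPM in COL (log2 change 3.12 ± 0.56, adjusted p = 0.0062). Pla2g2a, a Paneth cell phospholipase that attacks bacterial membranes and is annotated as a polymorphic pseudogene in the reference strain, was at 1582, 1595 and 1329.9 CPM in GF and 6932, 6327 and 8693 CPM in COL (log2 change 2.28 ± 0.23, adjusted p = 6.6e-07). Lypd8, which keeps flagellated bacteria away from the epithelium, rose from 1343, 912 and 852 CPM in GF to 2675, 2232 and 2987 CPM in COL (log2 change 1.35 ± 0.23, adjusted p = 0.00063). No GF library reached the lowest COL library in any of these genes.

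Serum amyloid A proteins are acute-phase proteins that epithelium makes in response to adherent bacteria. Saa1 (chromosome 7, 46740497 to 46742980) was nearly silent in GF, at 4.88, 0.894 and 0.801 CPM, and was at 707, 1988 and 2969.9 CPM in COL (log2 change 9.92 ± 1.10, adjusted p = 0.00023). GF replicate 1 was the highest GF library, and without it the log2 fold change was 11.09. Saa3, a relative, was at 1.27, 1.34 and 0.667 CPM in GF and 6.29, 8.63 and 10.9 CPM in COL (log2 change 2.99 ± 0.49, adjusted p = 0.00039). Saa2 had 0 counts in the 3 GF libraries and 28 in COL, at least 11-fold higher when GF is set to 3 counts over the group. Saa2 was not called without GF replicate 2, GF replicate 3 or COL replicate 2 (adjusted p up to 0.056). Saa1 and Saa2 are near-identical, and reads that fit both were left out by the authors' counting, so their split is uncertain. The remaining 4 members did not pass the test. Reg1 was at 16.3, 7.15 and 9.61 CPM in GF and 4.26, 9.96 and 7.28 CPM in COL (log2 change -0.61 ± 0.38, adjusted p = 0.44), with overlapping groups. Reg3a was at 1285, 863 and 1021 CPM in GF and 854, 1329 and 1957 CPM in COL (log2 change 0.39 ± 0.41, adjusted p = 0.7). Reg4 was at 257, 242 and 229 CPM in GF and 198, 91.2 and 132 CPM in COL (log2 change -0.79 ± 0.33, adjusted p = 0.23). Lcn2, which binds bacterial siderophores, was at 0.212, 1.64 and 0.534 CPM in GF and 1.01, 1.99 and 3.64 CPM in COL (log2 change 1.43 ± 0.82, adjusted p = 0.39). Reg3a and Lcn2 overlapped between the groups, whereas every COL library lay below every GF library for Reg4. Dmbt1 (chromosome 7, 131032053 to 131121630), a mucosal scavenger receptor that binds bacteria and lies outside the list, was among the largest rises of the whole table at 173, 138 and 145 CPM in GF and 2184, 3769 and 4867 CPM in COL (log2 change 4.57 ± 0.40, adjusted p = 9e-06).

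**Figure D2:**
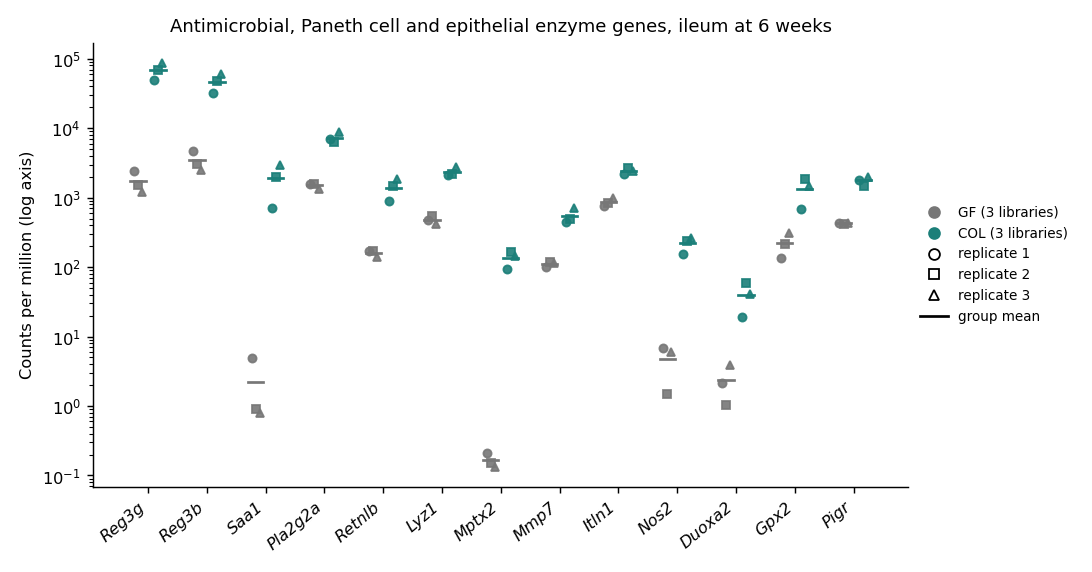
CPM (log axis) of 13 antimicrobial, Paneth cell and epithelial enzyme genes in the 3 GF and 3 COL ileum libraries at 6 weeks; points are libraries, their shape the replicate number, and lines group means. For every gene shown the lowest COL library lies above the highest GF library, with Reg3g at 49099.7 CPM or more in COL and 2447 CPM or less in GF.

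Paneth cells lie at the base of the crypts and store antimicrobial peptides in granules. Of 19 Paneth cell genes on the list, 16 were tested, 7 rose and 0 fell, with a median log2 fold change of 1.28, and 14 had all 3 COL libraries above all 3 GF libraries. Of all genes tested 22.8% had groups that did not overlap, 11.6% with COL above GF. Lyz1, the Paneth cell lysozyme, was at 477, 539.7 and 418 CPM in GF and 2089, 2157 and 2794 CPM in COL (log2 change 2.3 ± 0.35, adjusted p = 0.00069). Mmp7, the protease that activates α-defensins in mice, was at 101, 118 and 115 CPM in GF and 452, 486 and 713 CPM in COL (log2 change 2.3 ± 0.35, adjusted p = 0.00088). Itln1, a lectin for microbial sugars, was at 755, 836 and 980.4 CPM in GF and 2192, 2632 and 2437 CPM in COL (log2 change 1.5 ± 0.19, adjusted p = 2.7e-05). In each of these genes the groups stood apart by more than the range within either. Ang4, a microbicidal ribonuclease of Paneth cells, was at 66.2, 67.5 and 53.4 CPM in GF and 242, 206 and 295 CPM in COL (log2 change 1.99 ± 0.33, adjusted p = 0.0017). Mptx2 (chromosome 1, 173274382 to 173277777), a mucosal pentraxin, had 3 counts in all GF libraries together and 2154 in COL, a ratio of 847 with a 95% counting interval of 289 to 4110. It was at 0.212, 0.149 and 0.133 CPM in GF and 94, 165 and 143 CPM in COL. Mptx2 was thus close to absent in every GF library and present in each COL library. Its paralog Mptx1 was at 175, 117 and 139 CPM in GF and 291, 253 and 349 CPM in COL and did not pass the test (log2 change 1.06 ± 0.42, adjusted p = 0.2), although its groups did not overlap.

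The α-defensins, peptides that permeabilize bacterial membranes, did not all move alike. Defa24 was at 406, 563 and 580.4 CPM in GF and 1636, 1760.2 and 1839 CPM in COL (log2 change 1.76 ± 0.28, adjusted p = 0.0005). Defa30 was at 67.2, 83.7 and 92.5 CPM in GF and 169.7, 188 and 226 CPM in COL (log2 change 1.26 ± 0.29, adjusted p = 0.015). Defa30 was not called without GF replicate 1, GF replicate 2, COL replicate 2 or COL replicate 3 (adjusted p up to 0.08). Defa29 (chromosome 8, 21325887 to 21327020), which is not on the list and was named for the size of its rise, was at 38.4, 45.9 and 58.1 CPM in GF and 384, 561 and 704 CPM in COL (log2 change 3.53 ± 0.45, adjusted p = 0.0004). Defa17 was at 806, 1033 and 1049.9 CPM in GF and 2332, 2594 and 2229 CPM in COL and narrowly missed the threshold (log2 change 1.31 ± 0.36, adjusted p = 0.051). Defa22 lay between 15 and 24.2 CPM in all 6 libraries (log2 change 0.06 ± 0.26, adjusted p = 0.95). Alpha-defensin genes are near-identical copies, so the share of each in the counted reads is uncertain. The summed level of the whole Paneth cell list was 2957, 3465 and 3558 CPM in GF and 9639, 10570 and 11160 CPM in COL.

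Goblet cell genes gave a different picture. Of 17 on the list, 16 were tested, 1 rose and 1 fell, with a median of -0.12, beside 4.64% called among all genes tested. Muc2, the gel-forming mucin, was at 4821, 4174 and 3965 CPM in GF and 5339, 3807 and 5511 CPM in COL (log2 change 0.18 ± 0.23, adjusted p = 0.76), with overlapping groups. Zg16, a mucus lectin that binds Gram-positive bacteria, fell from 8579.7, 9613 and 10996 CPM to 6987, 6373 and 4748 CPM (log2 change -0.69 ± 0.20, adjusted p = 0.0462), and Spink4, a goblet cell peptide, rose from 477, 528 and 460.0 CPM to 800.2, 830.2 and 767 CPM (log2 change 0.71 ± 0.20, adjusted p = 0.039). Both calls are weak: each was lost when any single GF library or COL replicate 2 or 3 was left out (adjusted p up to 0.26 for Zg16 and 0.14 for Spink4), Spink4 also without COL replicate 1. Clca1, Fcgbp and Tff3, other secreted mucus proteins, did not pass the test (log2 fold changes 0.01, 0.05 and -0.35).

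On a list of 11 epithelial oxidases and related genes, 4 of 9 tested rose and 0 fell, with a median of 1.48. The 4 were Nos2, Duoxa2, Cyba and Gpx2, while the peroxide-making enzyme Duox2 did not pass the test. Nos2 (chromosome 11, 78920787 to 78960254), the inducible nitric oxide synthase, was at 6.79, 1.49 and 6.01 CPM in GF and 153, 240.3 and 265 CPM in COL (log2 change 5.55 ± 0.60, adjusted p = 0.00016). Duoxa2 (chromosome 2, 122298900 to 122302885), which brings the peroxide-making oxidase Duox2 to the cell surface, was at 2.12, 1.04 and 3.87 CPM in GF and 19.3, 60 and 40.9 CPM in COL (log2 change 4.05 ± 0.74, adjusted p = 0.0065). The log2 fold change was 4.71 without GF replicate 3. The groups were separated by a wide gap in both, with COL replicate 1 again the lowest of its group. Duox2 itself had few tags, 0.636, 0 and 0.40 CPM in GF and 3.86, 0.443 and 0.303 CPM in COL, and was not called (log2 change 2.14 ± 1.01, adjusted p = 0.27). Cyba, the membrane subunit shared by NADPH oxidases, was at 62.6, 45.6 and 49.4 CPM in GF and 151, 100.2 and 145 CPM in COL (log2 change 1.33 ± 0.21, adjusted p = 0.00022). Gpx2, a glutathione peroxidase of the gut epithelium, was at 137, 217 and 313 CPM in GF and 690.0, 1883 and 1457 CPM in COL (log2 change 2.59 ± 0.40, adjusted p = 0.0011). Noxo1 and Noxa1, the organizer and activator of Nox1, stood higher in each COL library than in any GF library and just missed the threshold (adjusted p = 0.0532 and 0.051). Gpx1, the form found in most tissues, differed little (log2 change 0.1 ± 0.15, adjusted p = 0.8).

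Bacteria also meet sugar chains on epithelial proteins. Of 14 tested genes of sugar chain synthesis 3 rose and 0 fell, with a median of 0.05, close to that of all genes. The count was 1 without GF replicate 2, GF replicate 3, COL replicate 2 or COL replicate 3. Fut2, which adds the fucose that bacteria can use, had 0 counts in the 3 GF libraries and 1112 in COL, at least 437-fold higher when GF is set to 3 counts over the group. Its levels in COL were 30.6, 129 and 57.1 CPM. Its adjusted p of 0.021 passed the threshold with all libraries but not when any GF library, COL replicate 2 or COL replicate 3 was left out (adjusted p up to 0.072). B3gnt7 (chromosome 1, 86302832 to 86307305), which extends lactosamine and keratan chains, was at 9.12, 8.94 and 6.27 CPM in GF and 76.3, 165 and 109 CPM in COL (log2 change 3.85 ± 0.68, adjusted p = 0.0056). B3gnt3, a related enzyme that makes mucin core extensions, was at 5.51, 3.13 and 3.07 CPM in GF and 12, 9.07 and 8.49 CPM in COL (log2 change 1.35 ± 0.39, adjusted p = 0.044). B3gnt3 lost its call without any one of 5 of the 6 libraries (adjusted p up to 0.18), GF replicate 1 being the exception. B3galt5 was at 0.636, 0.745 and 0 CPM in GF and 4.06, 135 and 35.6 CPM in COL, a wide range among the COL libraries (log2 change 7.01 ± 1.87, adjusted p = 0.0548). B4galnt2, whose sugar epitope also differs with the host's strain, stood at 761, 788 and 797 CPM in GF and 932, 739 and 949 CPM in COL (log2 change 0.16 ± 0.18, adjusted p = 0.72) with overlapping groups.

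Interferon-responsive genes formed the other large group of rises. Interferon-γ acts through the receptor pair Ifngr1 and Ifngr2 and the kinases Jak1 and Jak2, and its targets include the immunity-related GTPases (Irg genes) and guanylate-binding proteins (Gbp genes) that attack vacuoles of intracellular microbes. Type I interferons act through factors such as Stat2 and Irf9 on antiviral genes such as Isg15 and the Ifit family. Both routes end on short DNA motifs, the γ-activated site (GAS) and the interferon-stimulated response element (ISRE). The 300-base windows that run from 250 bases before to 50 bases after the start of 4 genes that rose are shown because they carry both motifs (Irgm2, Igtp, Gbp7) or only the second (Isg15); they are RefSeq sequences of build GRCm38.p6, written 5′ to 3′ on the strand of the gene, with the motif matches in capitals.
Irgm2, chr11:58214727-58215026, plus strand: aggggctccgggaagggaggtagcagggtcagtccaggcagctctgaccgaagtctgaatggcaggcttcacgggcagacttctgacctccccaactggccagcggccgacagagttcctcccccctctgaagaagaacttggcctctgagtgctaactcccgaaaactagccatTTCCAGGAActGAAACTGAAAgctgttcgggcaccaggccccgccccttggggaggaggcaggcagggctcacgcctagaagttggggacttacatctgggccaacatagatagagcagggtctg
Igtp, chr11:58199306-58199605, plus strand: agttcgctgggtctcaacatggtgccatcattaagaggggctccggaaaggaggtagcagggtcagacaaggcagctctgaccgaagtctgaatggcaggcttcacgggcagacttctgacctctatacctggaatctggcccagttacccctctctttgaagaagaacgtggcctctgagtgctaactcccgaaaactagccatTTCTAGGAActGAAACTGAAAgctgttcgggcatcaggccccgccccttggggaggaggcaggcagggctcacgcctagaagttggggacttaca
Gbp7, chr3:142530086-142530385, plus strand: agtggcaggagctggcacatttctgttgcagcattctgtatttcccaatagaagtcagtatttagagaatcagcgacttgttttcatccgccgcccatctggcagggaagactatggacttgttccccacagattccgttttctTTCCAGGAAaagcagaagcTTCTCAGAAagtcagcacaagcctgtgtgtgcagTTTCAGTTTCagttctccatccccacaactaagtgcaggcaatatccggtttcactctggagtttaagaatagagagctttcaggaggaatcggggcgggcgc
Isg15, chr4:156200769-156201068, minus strand: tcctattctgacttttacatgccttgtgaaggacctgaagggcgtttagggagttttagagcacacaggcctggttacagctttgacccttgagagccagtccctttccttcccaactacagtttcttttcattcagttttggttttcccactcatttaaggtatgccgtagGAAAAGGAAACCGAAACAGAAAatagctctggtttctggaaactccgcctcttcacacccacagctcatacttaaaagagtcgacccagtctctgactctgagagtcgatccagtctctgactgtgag
The search used TTCNNNGAA for GAS, which reads the same on both strands, where N is any base, and for ISRE a pair of GAAA with 2 bases of any kind between them, on both strands. In the Irgm2 window, counted from its first base, GAS spans bases 176 to 184 and ISRE bases 187 to 196, and in the Igtp window GAS spans bases 206 to 214 and ISRE bases 217 to 226. The Gbp7 window holds 2 GAS matches (145 to 153 and 164 to 172) and an ISRE on the reverse strand (198 to 207), and the Isg15 window holds 3 ISRE matches that overlap each other (173 to 182, 179 to 188 and 185 to 194).

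The same search over 10300 tested genes with a window found ISRE in 3.79% and GAS in 8.29% of them. Among the genes that rose in COL, 22 of 271 with a window held ISRE (8.12%), and among those that fell 7 of 195 (3.59%). Of the list of interferon-γ targets, 13 of 26 had a window, of which 10 held ISRE (76.9%) and 6 GAS (46.2%). Of the type I interferon list, 20 of 28 had a window, of which 11 held ISRE (55%) and 4 GAS (20%). These lists were written from knowledge of interferon responses and with earlier results of these data known. Motif matches in them describe the genes and are no result of colonization.

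Of 24 tested interferon-γ targets on a list of 26, 12 rose and 0 fell, with a median log2 fold change of 1.30, and without GF replicate 2 the number that rose was 9. Irgm2 (chromosome 11, 58199618 to 58222782), a regulatory Irg protein on host membranes, was at 15.7, 10.7 and 12.3 CPM in GF and 70.4, 87.4 and 86.6 CPM in COL (log2 change 2.67 ± 0.21, adjusted p = 3e-08). Igtp (chromosome 11, 58199556 to 58207591), a related GTPase also named Irgm3, was at 8.27, 6.41 and 3.34 CPM in GF and 54.8, 83.4 and 73.4 CPM in COL (log2 change 3.59 ± 0.53, adjusted p = 0.0012). The GENCODE spans of the 2 genes overlap, so the split of reads between them is uncertain. The Irgm2 window shown above follows a RefSeq start that lies inside the GENCODE span of Irgm2. In both genes every COL library exceeded every GF library. Ifi47, an Irg family GTPase, was at 16.8, 7.89 and 10.5 CPM in GF and 52.8, 46.5 and 78.8 CPM in COL (log2 change 2.37 ± 0.37, adjusted p = 0.00095). Iigp1, another one, was at 5.3, 4.32 and 3.34 CPM in GF and 14.4, 23.9 and 18.5 CPM in COL (log2 change 2.15 ± 0.32, adjusted p = 0.00022). Irgm1, which guards lysosomes, was at 4.88, 2.68 and 4.94 CPM in GF and 9.13, 9.74 and 17.7 CPM in COL (log2 change 1.56 ± 0.39, adjusted p = 0.018). Irgm1 was not called without GF replicate 2 or COL replicate 3 (adjusted p up to 0.17).

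Zbp1, a sensor of Z-form nucleic acid that can start cell death, was at 3.18, 0.745 and 0.667 CPM in GF and 18.1, 29.6 and 34.3 CPM in COL (log2 change 4.29 ± 0.54, adjusted p = 0.00012), and its log2 fold change was 5.24 without GF replicate 1. Ido1, which breaks down tryptophan, was at 0.212, 0.149 and 0.534 CPM in GF and 3.86, 2.66 and 3.79 CPM in COL (log2 change 3.38 ± 0.63, adjusted p = 0.0014; 4.14 without GF replicate 3). Cxcl9, a chemokine for T cells, was at 1.91, 0.745 and 1.87 CPM in GF and 4.67, 8.63 and 12.7 CPM in COL (log2 change 2.54 ± 0.44, adjusted p = 0.00067). All 3 genes had low levels in GF and no overlap with COL. Gbp7 was at 11.9, 8.94 and 8.94 CPM in GF and 29.8, 34.1 and 22.3 CPM in COL (log2 change 1.54 ± 0.22, adjusted p = 0.0001), and it was the only guanylate-binding protein gene called of 7 tested on the list. Gbp2b, a relative outside the list, was at 11.7, 7.0 and 8.14 CPM in GF and 27.4, 27.4 and 29.7 CPM in COL (log2 change 1.67 ± 0.34, adjusted p = 0.0048), called in the fit of all libraries. Gbp2 was at 7.42, 4.62 and 5.61 CPM in GF and 13.6, 3.32 and 8.94 CPM in COL (log2 change 0.57 ± 0.44, adjusted p = 0.56). Gbp3 was at 7.21, 3.28 and 3.47 CPM in GF and 4.26, 5.75 and 2.88 CPM in COL (log2 change -0.1 ± 0.43, adjusted p = 0.94). Gbp4 was at 4.03, 0.894 and 1.74 CPM in GF and 5.48, 7.52 and 2.73 CPM in COL (log2 change 1.28 ± 0.45, adjusted p = 0.11). The groups overlapped in Gbp2, Gbp3 and Gbp4. Batf2, a transcription factor, was at 18.5, 24.3 and 22.6 CPM in GF and 38.8, 67.3 and 46.1 CPM in COL (log2 change 1.21 ± 0.24, adjusted p = 0.0026). Nlrc5, the activator of MHC class I genes, had 3 counts in GF and 41 in COL, a ratio of 16.1 with a 95% counting interval of 5.14 to 81.4. It was not called without GF replicate 2 or 3 (adjusted p up to 0.056).

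Some components of the pathway itself were also higher. Of 13 tested genes of the interferon-γ axis 6 rose and 0 fell, with a median of 0.31. Ifng had 0 counts in all 6 libraries, where 3 counts is the limit that a count of 0 allows, so the cytokine itself was not detectable at this depth. Irf1, a transcription factor that interferon-γ induces, was at 281, 342 and 399 CPM in GF and 552, 803 and 758 CPM in COL (log2 change 1.05 ± 0.22, adjusted p = 0.0039). Irf8 was at 173, 130.04 and 117 CPM in GF and 279, 241 and 253 CPM in COL (log2 change 0.88 ± 0.17, adjusted p = 0.0026). Neither transcription factor gene overlapped between groups. Socs1, which shuts the pathway down, was at 1.91, 1.19 and 3.2 CPM in GF and 6.09, 6.86 and 10.9 CPM in COL (log2 change 1.9 ± 0.42, adjusted p = 0.0062). Socs1 was not called without GF replicate 2 or COL replicate 3 (adjusted p up to 0.064). Il18, an epithelial cytokine that can induce interferon-γ in lymphocytes, was at 17, 30.2 and 43.1 CPM in GF and 95.8, 249 and 171 CPM in COL (log2 change 2.5 ± 0.45, adjusted p = 0.0048). Its soluble inhibitor Il18bp was at 5.3, 1.19 and 2.27 CPM in GF and 16.2, 29.4 and 29.3 CPM in COL (log2 change 3.18 ± 0.48, adjusted p = 0.00071; 3.83 without GF replicate 1). The receptor gene Ifngr1 was at 264, 439.9 and 458 CPM in GF and 314, 281 and 175 CPM in COL and was not called (log2 change -0.6 ± 0.21, adjusted p = 0.1).

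Of 28 type I interferon genes, all tested, 11 rose and 0 fell, with a median of 1.09; all 28 fitted changes were positive. Isg15, a ubiquitin-like modifier, was at 8.91, 5.36 and 13.3 CPM in GF and 25, 63.5 and 33.2 CPM in COL (log2 change 2.13 ± 0.39, adjusted p = 0.0023). Ifit1, which binds foreign RNA, was at 28.6, 26.7 and 21.4 CPM in GF and 94, 122.8 and 126 CPM in COL (log2 change 2.16 ± 0.40, adjusted p = 0.0048). Ifit3 was at 6.15, 1.79 and 3.6 CPM in GF and 19.3, 25.2 and 24.1 CPM in COL (log2 change 2.6 ± 0.42, adjusted p = 0.00033). Ifit1bl1 (chromosome 19, 34592891 to 34601956), an Ifit1-like gene outside the list, was at 21.4, 14 and 13.1 CPM in GF and 129, 174 and 141 CPM in COL (log2 change 3.21 ± 0.41, adjusted p = 0.00031). The groups did not overlap in any of these. Rsad2, which makes an antiviral nucleotide, was at 23.5, 22.2 and 24.4 CPM in GF and 51.3, 104 and 65.3 CPM in COL (log2 change 1.65 ± 0.28, adjusted p = 0.00079). Irf9, the DNA-binding partner of Stat2, was at 63.6, 63 and 54.1 CPM in GF and 115, 121 and 187 CPM in COL (log2 change 1.23 ± 0.20, adjusted p = 0.00034). Mx1 was at 4.24, 2.98 and 2.8 CPM in GF and 2.64, 2.66 and 7.28 CPM in COL and Oas1a at 4.88, 3.13 and 4.67 CPM in GF and 4.87, 6.2 and 2.27 CPM in COL, both with overlapping groups and no call. Members near the threshold depended on single libraries: Oas2, Mx2, Dhx58, Usp18 and Oas3 each lost the call without at least 1 of the 6 libraries (adjusted p up to 0.17, 0.12, 0.094, 0.5 and 0.051 over all settings), and without GF replicate 2 the count was 7 of 28.

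Proteasome and peptide transport genes of the MHC class I route followed: 8 of 17 tested genes rose and 0 fell, with a median of 0.72. Psmb8, an inducible subunit of the immunoproteasome, was at 52.2, 29.5 and 38.4 CPM in GF and 162, 164 and 185 CPM in COL (log2 change 2.1 ± 0.19, adjusted p = 3.8e-07). Psmb9, its neighbour in the MHC region, was at 52.6, 47.5 and 61.7 CPM in GF and 147, 129 and 155 CPM in COL (log2 change 1.41 ± 0.17, adjusted p = 1.3e-05). Tap1, which moves peptides into the endoplasmic reticulum, was at 30.8, 21.6 and 21.8 CPM in GF and 75.5, 83.4 and 54.9 CPM in COL (log2 change 1.53 ± 0.22, adjusted p = 0.0001). COL libraries exceeded GF libraries throughout for these 3 genes, which stayed called when any one library was left out. The other five calls were smaller and less stable: Psmb10, Psme2, Tapbpl, H2-D1 and Calr had log2 fold changes of 0.86, 0.67, 0.75, 1.01 and 0.67, and each was lost without at least 1 library, so that the count was 3 without GF replicate 2 or COL replicate 2 and 4 without GF replicate 3 or COL replicate 3. The light chain B2m was at 1957, 1428 and 1245 CPM in GF and 2859, 1969.9 and 2773 CPM in COL and was not called (log2 change 0.72 ± 0.23, adjusted p = 0.082). H2-K1, a heavy chain, was at 259, 236 and 272 CPM in GF and 263, 415 and 359 CPM in COL (log2 change 0.44 ± 0.18, adjusted p = 0.2) and was not called. MHC class I genes are alike in sequence, and their separation by uniquely aligned reads is uncertain.

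Inflammasome and gasdermin genes gave 5 rises and 0 falls among 15 tested, with a median of 0.58. The count was 3 without GF replicate 2 or COL replicate 3. Pycard, the adaptor of inflammasomes, rose (log2 change 0.64 ± 0.16, adjusted p = 0.018) but was not called without GF replicate 2, GF replicate 3, COL replicate 2 or COL replicate 3 (adjusted p up to 0.11). The gasdermin C genes, which encode pore-forming proteins of the gut epithelium, rose together: Gsdmc2 was at 9.12, 8.19 and 14.3 CPM in GF and 76.7, 71.7 and 74.3 CPM in COL (log2 change 2.8 ± 0.45, adjusted p = 0.0014). Gsdmc3 was at 1.48, 1.94 and 1.47 CPM in GF and 16.6, 14.2 and 14.6 CPM in COL (log2 change 3.19 ± 0.50, adjusted p = 0.00029). Gsdmc4 was at 3.61, 1.94 and 5.74 CPM in GF and 25.2, 18.1 and 23 CPM in COL (log2 change 2.54 ± 0.59, adjusted p = 0.017). Gsdmc4 was not called without GF replicate 1, GF replicate 2 or COL replicate 3 (adjusted p up to 0.1). The 3 copies are similar and their split is uncertain, but none of them overlapped between groups. Casp4, the sensor of lipopolysaccharide inside cells, was at 16.5, 14.6 and 7.61 CPM in GF and 26.6, 33.9 and 32.7 CPM in COL (log2 change 1.28 ± 0.27, adjusted p = 0.0052). Casp1, Nlrp6 and Nlrc4 were not called (log2 fold changes 0.19, -0.01 and 0.22).

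The counts of called genes in the immune cell lists stand beside a share of 4.64% called among all genes tested. None of 20 tested T cell and intraepithelial lymphocyte genes was called (list of 24, median -0.07), in edgeR or DESeq2; 4 had higher and 2 lower levels at an unadjusted p under 0.05, and without GF replicate 1 the edgeR count was 2 higher. Granzyme A, the cytotoxic protease of these lymphocytes, was at 7.63, 0.447 and 0.934 CPM in GF and 11.2, 11.3 and 5.91 CPM in COL (log2 change 1.83 ± 0.84, adjusted p = 0.29). Gzmb was at 3.61, 0 and 0 CPM in GF and 3.65, 3.54 and 4.55 CPM in COL (log2 change 1.98 ± 0.91, adjusted p = 0.28). GF replicate 1 lay within the COL range for both, whereas GF replicates 2 and 3 lay below 1 CPM. Cd3e, a chain of the T cell receptor complex, was at 4.24, 0 and 0.133 CPM in GF and 0.203, 0.221 and 0 CPM in COL. The median of the list lay between -0.43 and 1.55 over all settings run. Among these were fits of the 6 libraries alone, in which 18 of the 24 listed genes were not tested.

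The 12 tested follicular B cell genes gave 0 calls in edgeR or DESeq2 and 0 at an unadjusted p under 0.05. Their median was -3.63 (-3.24 with genes at 0 in COL set at their bound), and it was 1.09 without GF replicate 1. In fits of the 6 libraries alone, 13 of the 14 listed genes were below the filter on low counts. The values there, 0.74 and 1.41 with the replicate block, are not medians of the same genes and cannot be set beside -3.63. Cr2, a complement receptor of follicular B cells, was at 19.3, 0 and 0.133 CPM in GF and 0.609, 0.885 and 0.758 CPM in COL. For Cr2 only GF replicate 1 had more than 1 CPM.

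Plasma cell and IgA genes gave 3 rises and 0 falls among 13 tested, with a median of 0.65. Pigr, the epithelial receptor that carries IgA into the lumen, was at 437, 422 and 437 CPM in GF and 1811, 1485 and 2010.4 CPM in COL (log2 change 2.03 ± 0.20, adjusted p = 4.3e-07). Prdm1, a transcription factor of plasma cells that intestinal epithelium also expresses, was at 21.4, 11.6 and 13.1 CPM in GF and 34.5, 46.5 and 48.2 CPM in COL (log2 change 1.5 ± 0.27, adjusted p = 0.0013). Creld2, an endoplasmic reticulum protein, was at 21.2, 18 and 18.6 CPM in GF and 36.5, 40 and 43.8 CPM in COL (log2 change 1.06 ± 0.31, adjusted p = 0.0496). Creld2 lost its call without any single one of the 6 libraries (adjusted p up to 0.18). Genes closer to plasma cells themselves did not pass the test: Jchain, the chain that joins IgA dimers, was at 88.2, 26.5 and 47.9 CPM in GF and 52.6, 58.2 and 28 CPM in COL (log2 change -0.23 ± 0.36, adjusted p = 0.81). Tnfrsf17, a survival receptor of plasma cells, was at 1.27, 0.447 and 0.667 CPM in GF and 1.22, 0.443 and 0.152 CPM in COL (log2 change -0.39 ± 0.67, adjusted p = 0.82). COL and GF libraries of Jchain were interleaved.

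MHC class II genes showed 2 rises and 0 falls among 13 tested, with a median of 0.38. H2-DMb1, a chain of the peptide loading factor, was at 38.4, 24.3 and 32.2 CPM in GF and 130.5, 108 and 159 CPM in COL (log2 change 2.07 ± 0.25, adjusted p = 2.2e-05). The lysosomal protease Lgmn was at 55.1, 54.5 and 67.3 CPM in GF and 121, 277 and 258 CPM in COL (log2 change 1.89 ± 0.35, adjusted p = 0.0049). The invariant chain Cd74 was at 48.6, 17.7 and 14.8 CPM in GF and 50.5, 36.3 and 48.2 CPM in COL (log2 change 0.77 ± 0.34, adjusted p = 0.25). H2-Ab1, a chain of the class II molecule, was at 157, 33.1 and 20 CPM in GF and 112, 44.3 and 113 CPM in COL (log2 change 0.38 ± 0.66, adjusted p = 0.83). GF replicate 1 lay within the COL range in Cd74 and above it in H2-Ab1, and the other two GF libraries lay below it. Without GF replicate 1 the list had 5 rises in place of 2; the part of the B cell genes of that library in these values was not tested.

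Macrophage genes gave 1 rise and 0 falls among 21 tested, close to the 4.64% called among all genes tested, with a median of 0.33. The count was 0 without GF replicate 3 or COL replicate 2 and 2 without GF replicate 1 or COL replicate 1. Csf1r, the growth factor receptor of macrophages, was at 15.7, 10.3 and 10 CPM in GF and 7.31, 9.29 and 13.5 CPM in COL (log2 change -0.24 ± 0.29, adjusted p = 0.75). Cx3cr1 was at 10.2, 11.5 and 10.8 CPM in GF and 8.32, 15 and 11.1 CPM in COL (log2 change 0.08 ± 0.31, adjusted p = 0.93) and Adgre1 at 2.12, 1.34 and 1.74 CPM in GF and 3.65, 5.09 and 3.64 CPM in COL (log2 change 1.25 ± 0.55, adjusted p = 0.23). Csf1r and Cx3cr1 overlapped between groups, and Adgre1 did not. The neutrophil proteins S100a8 and S100a9, below the filter on low counts, were at or near 0 in all 6 libraries. Of 16 neutrophil and cytokine genes on the list, 6 were tested and 0 called, with a median of 1.74. All 6 fitted changes were positive, and 2 had an unadjusted p under 0.05 by edgeR. Among genes of the interleukin-22 and interleukin-17 route, Nfkbiz, a nuclear regulator of inflammatory genes, was the 1 call of 9 tested, at 22.9, 34.9 and 29.9 CPM in GF and 132, 88.7 and 136 CPM in COL (log2 change 2.02 ± 0.26, adjusted p = 4.8e-05). Il22 and Il17a had at most 1.33 CPM.

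Of 26 proliferation genes 3 rose and 0 fell, against 2.78% higher among all genes tested, with a median of 0.56, and 25 of the 26 fitted changes were positive. Cdk1, the kinase that drives mitosis, was at 44.7, 43 and 40.7 CPM in GF and 67.8, 93.6 and 91.1 CPM in COL (log2 change 0.98 ± 0.22, adjusted p = 0.0072), while Mki67, the marker of cycling cells, at 52, 39.5 and 33.8 CPM in GF and 60.5, 53.5 and 45.5 CPM in COL, was not called (log2 change 0.35 ± 0.20, adjusted p = 0.39). Ccna2, a cyclin, was not called without GF replicate 2, GF replicate 3, COL replicate 2 or COL replicate 3 (adjusted p up to 0.16), and Birc5, a mitotic regulator, not without GF replicate 1, GF replicate 2, COL replicate 2 or COL replicate 3 (up to 0.14). At an unadjusted p under 0.05, 14 of the 26 were higher and 0 lower. DESeq2 called 5 higher, and edgeR on the 6 libraries alone 9. The count was 5 without COL replicate 1 and 1 without GF replicate 2, COL replicate 2 or COL replicate 3. Among 17 stem cell and Wnt genes only Prom1 rose (log2 change 1.06 ± 0.27, adjusted p = 0.022), a share near the 4.64% called among all genes tested. Prom1 was not called without any single GF library, COL replicate 2 or COL replicate 3 (adjusted p up to 0.11). Lgr5, the stem cell receptor, was at 19.1, 15.2 and 14 CPM in GF and 17.7, 20.8 and 22 CPM in COL (log2 change 0.33 ± 0.30, adjusted p = 0.63).

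Fat oxidation was the list with the most falls. PPARα, encoded by Ppara, is a nuclear receptor that binds fatty acids and induces genes for their oxidation in mitochondria, peroxisomes and microsomes. Of 21 tested genes of this list of 22, 0 rose and 10 fell, with a median of -0.71, and 15 had all 3 COL libraries below all 3 GF libraries (11.3% of all genes tested did). Ppara itself was at 189, 230.1 and 218 CPM in GF and 123.2, 87.6 and 63.1 CPM in COL (log2 change -1.22 ± 0.25, adjusted p = 0.0044). Acot1 (chromosome 12, 84009490 to 84018371), which cleaves fatty acyl-CoA and is a classical PPARα target, was at 47.7, 49.9 and 45.9 CPM in GF and 3.65, 4.87 and 4.09 CPM in COL, 11.4-fold lower in COL (log2 change -3.51 ± 0.34, adjusted p = 4.3e-07). Cyp4a10, a fatty acid ω-hydroxylase, was at 52.6, 38.1 and 20.7 CPM in GF and 2.23, 0 and 0 CPM in COL (log2 change -5.68 ± 0.85, adjusted p = 0.0012). With 2 COL libraries at 0 its size is poorly fixed, and it was -10.78 without COL replicate 1 and -4.98 without COL replicate 3. For all 3 genes the highest COL library lay below the lowest GF library.

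Acaa1b, a peroxisomal thiolase, was at 163, 184 and 229.7 CPM in GF and 72.9, 46.2 and 31.5 CPM in COL (log2 change -1.94 ± 0.25, adjusted p = 6e-05). Ehhadh, a peroxisomal enzyme of the same chain, was at 50.9, 39 and 85.2 CPM in GF and 27, 19.9 and 22.7 CPM in COL (log2 change -1.33 ± 0.30, adjusted p = 0.0096). Ehhadh was not called without GF replicate 3, COL replicate 2 or COL replicate 3 (adjusted p up to 0.088). Pdk4, which shifts fuel use from glucose to fat, was at 37.3, 36.5 and 60.2 CPM in GF and 18.9, 8.63 and 15.3 CPM in COL (log2 change -1.64 ± 0.30, adjusted p = 0.0011). Angptl4, a secreted inhibitor of lipoprotein lipase, was at 135, 149.8 and 127 CPM in GF and 64.9, 42.5 and 60.8 CPM in COL (log2 change -1.29 ± 0.23, adjusted p = 0.00099). No COL library reached the lowest GF library in any of these 4 genes. The mitochondrial enzymes Acaa2 and Hadha fell by 0.90 and 0.71 on the log2 scale, Hadha not without COL replicate 2 or 3 (adjusted p up to 0.098). Cpt1a, which admits long-chain fatty acids to mitochondria, was at 179.6, 201 and 178 CPM in GF and 152, 139 and 139 CPM in COL (log2 change -0.38 ± 0.18, adjusted p = 0.29) and was not called. GF replicate 1, the library with little of the fat tissue genes, did not stand alike in the called genes given with values. It lay within the range of the other GF libraries for Acot1, Ehhadh, Pdk4 and Angptl4. For Ppara and Acaa1b it was the lowest GF library, and for Cyp4a10 the highest. Without GF replicate 1 the count of falls was 10, and without COL replicate 3 it was 7. Leaving out GF replicate 1 keeps the GF libraries that held fat tissue genes, so that count does not bear on fat tissue. The part of fat tissue RNA in these values was not tested.

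**Figure D3:**
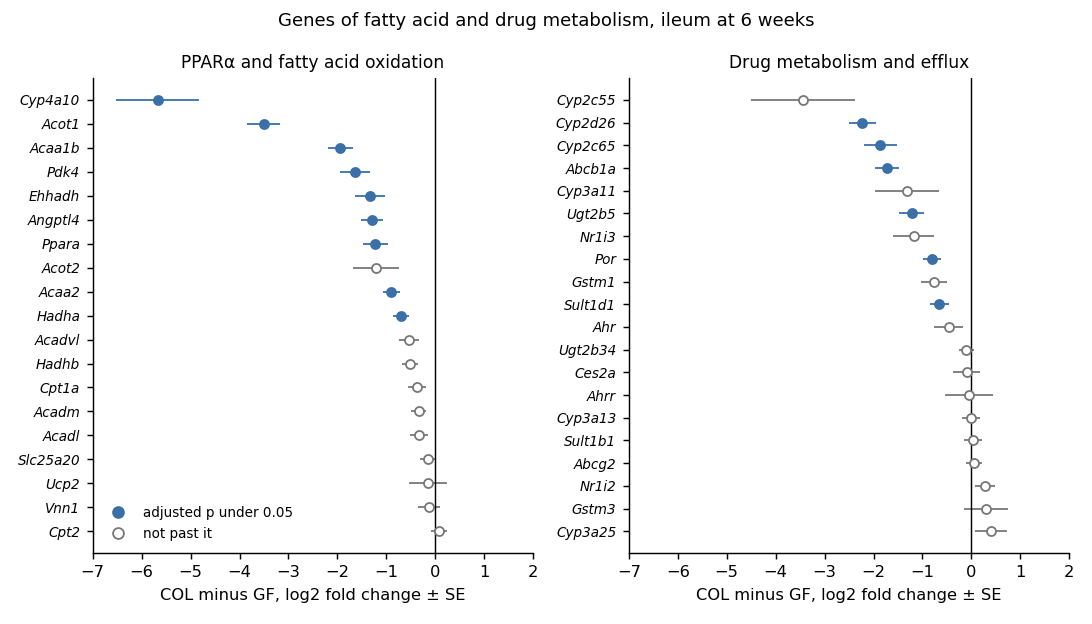
Log2 fold change, COL minus GF at 6 weeks, ± standard error (n = 3 libraries a group) for 19 tested genes of PPARα and fatty acid oxidation (left) and 20 of drug metabolism and efflux (right); filled points passed an adjusted p of 0.05. All 15 filled points lie below 0, from -0.65 (Sult1d1) to -5.68 (Cyp4a10).

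Fat absorption genes did not fall as a group, with 1 fall and 0 rises among 18 tested and a median of -0.07. That share is near the 4.64% called among all genes tested. The call was Fabp1 (chromosome 6, 71199827 to 71205023), the fatty acid binding protein of liver and proximal gut, at 284, 208 and 214 CPM in GF and 42, 29.4 and 21.1 CPM in COL (log2 change -2.94 ± 0.45, adjusted p = 0.0014), with no overlap. Its relative Fabp2 was at 7337, 6710.3 and 4575 CPM in GF and 4144, 3090.4 and 3844 CPM in COL (log2 change -0.75 ± 0.23, adjusted p = 0.059). Fatty acid receptor Cd36, which fat tissue also expresses, was at 9.97, 48 and 40.4 CPM in GF and 6.29, 9.29 and 9.25 CPM in COL (log2 change -1.99 ± 0.79, adjusted p = 0.21). GF replicate 1, with little of the fat tissue genes, had the lowest Cd36 of its group. Apob, Mttp and Dgat1, which build and load lipoproteins, were not called (log2 fold changes -0.01, -0.05 and -0.31).

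Genes of drug metabolism and efflux gave 6 falls and 0 rises among 20 tested of a list of 26, with a median of -0.56. Cyp2d26, a cytochrome P450, was at 222, 243 and 262 CPM in GF and 74.9, 44 and 37 CPM in COL (log2 change -2.23 ± 0.29, adjusted p = 0.0001). Cyp2c65, another one, was at 174, 163 and 139 CPM in GF and 60.9, 27.2 and 42.6 CPM in COL (log2 change -1.86 ± 0.34, adjusted p = 0.0034). Abcb1a, the efflux pump P-glycoprotein, was at 581, 532 and 644 CPM in GF and 232, 196 and 103 CPM in COL (log2 change -1.73 ± 0.25, adjusted p = 0.00022). COL libraries were below all GF libraries in each. Ugt2b5, Por and Sult1d1 fell by 1.22, 0.81 and 0.65 on the log2 scale. Ugt2b5 was not called without COL replicate 3 (adjusted p = 0.058), Por without COL replicate 2 (0.053), and Sult1d1 without any GF library or COL replicate 2 or 3 (up to 0.24). Cyp2c55 was at 34.1, 32.5 and 36 CPM in GF and 4.06, 3.54 and 1.97 CPM in COL and still missed the threshold (log2 change -3.45 ± 1.06, adjusted p = 0.097). The nuclear receptor genes Nr1i2 and Nr1i3, which induce such enzymes, were at 93.5, 104 and 128 CPM in GF and 129.7, 132 and 134 CPM in COL (log2 change 0.28 ± 0.20, adjusted p = 0.53) and 7.0, 8.49 and 7.34 CPM in GF and 3.65, 2.21 and 4.09 CPM in COL (log2 change -1.18 ± 0.41, adjusted p = 0.11). Neither was called, although COL libraries were all above GF for Nr1i2 and all below for Nr1i3.

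Several of the largest falls of the whole table carry other substrates of the epithelium. Slc28a1 (chromosome 7, 81114799 to 81170416), which takes up pyrimidine nucleosides, was at 48.6, 42.2 and 41 CPM in GF and 5.48, 2.21 and 3.33 CPM in COL (log2 change -3.57 ± 0.53, adjusted p = 0.00057). Slc22a3 (chromosome 17, 12418960 to 12507704), an organic cation transporter, was at 55.8, 69.9 and 54.1 CPM in GF and 15, 5.53 and 8.34 CPM in COL (log2 change -2.63 ± 0.37, adjusted p = 0.00016). Rdh7 (chromosome 10, 127884028 to 127888817), a retinol dehydrogenase, was at 279, 297 and 294 CPM in GF and 64.5, 20.8 and 37.6 CPM in COL (log2 change -2.82 ± 0.35, adjusted p = 0.00016), and its neighbour Rdh16f2 fell by 2.0 on the log2 scale (0.011 as adjusted p; 0.078 without COL replicate 3). Cyp4b1, a P450 that oxidizes fatty acids and some toxins, was at 206, 144 and 113 CPM in GF and 13.4, 35.6 and 36.1 CPM in COL (log2 change -2.44 ± 0.36, adjusted p = 0.00069). None of the COL libraries reached the lowest GF library in these genes. The remaining falls named by their size were Plscr4 (-2.17), Ces1g (-2.11), Nab2 (-2.08), Slc25a45 (-2.06), Trdmt1 (-2.0), H2-Q10 (-1.99) and Pmm1 (-1.96), each a log2 fold change of COL minus GF.

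Bile acid genes mark the ileum. Of 11 tested, 1 rose and 0 fell, with a median of 0.07, beside 4.64% called among all genes tested. Slc51b, a subunit of the basolateral bile acid exporter, was at 199, 205 and 252 CPM in GF and 401, 468 and 384 CPM in COL (log2 change 0.93 ± 0.22, adjusted p = 0.01). Slc51b was not called without GF replicate 2 or COL replicate 2 (adjusted p up to 0.06). The apical transporter Slc10a2 was at 457, 398 and 287 CPM in GF and 321, 266 and 238 CPM in COL (log2 change -0.47 ± 0.20, adjusted p = 0.2). Fgf15, the hormone by which the ileum tells the liver to slow bile acid synthesis, was at 0.212, 0.149 and 6.27 CPM in GF and 36.3, 40.3 and 46.1 CPM in COL, and Nr0b2, a target of the same bile acid receptor, at 0, 1.94 and 5.07 CPM in GF and 27.8, 18.6 and 10 CPM in COL. Every COL library stood above every GF library in both, and neither passed the test over all genes (adjusted p = 0.058 and 0.11).

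Cholesterol synthesis genes gave 4 falls and 0 rises among 27 tested, with a median of -0.09. Lss, Dhcr7 and Pmvk, enzymes of the pathway, fell by 1.07, 0.71 and 0.73 on the log2 scale, each not without at least 2 single libraries (adjusted p up to 0.11, 0.11 and 0.13), and the count was 2 without GF replicate 2, COL replicate 1 or COL replicate 2. In iron and zinc handling 2 of 16 tested genes rose and 0 fell: Slc40a1 (chromosome 1, 45908068 to 45926523), the iron exporter ferroportin, was at 8.91, 7.6 and 4.81 CPM in GF and 49.5, 85.6 and 111 CPM in COL (log2 change 3.55 ± 0.58, adjusted p = 0.0029). Slc30a1, which exports zinc, was at 75.7, 126 and 130.02 CPM in GF and 238, 318 and 311 CPM in COL (log2 change 1.38 ± 0.24, adjusted p = 0.0008). No COL library overlapped GF in either. Sugar and amino acid carriers changed singly: Slc5a1, the sodium and glucose cotransporter, was at 1039, 1082 and 1091 CPM in GF and 1667, 1746 and 2265 CPM in COL (log2 change 0.82 ± 0.19, adjusted p = 0.0093; 0.084 without COL replicate 3), and Slc43a2, a neutral amino acid transporter, at 239.7, 254 and 223 CPM in GF and 449.7, 400.3 and 476 CPM in COL (log2 change 0.89 ± 0.17, adjusted p = 0.002). Slc6a14, a transporter of neutral and cationic amino acids, had 3 counts in GF and 373 in COL, a ratio of 147 with a 95% counting interval of 49.8 to 714. Slc6a14 was not called without any GF library or COL replicate 2 or 3 (adjusted p up to 0.18).

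Heat shock and immediate early genes gave 6 rises and 0 falls among 19 tested, with a median of 0.54. Hspa1a (chromosome 17, 34969190 to 34972156), the inducible Hsp70 chaperone, was at 7.85, 5.96 and 5.21 CPM in GF and 34.1, 279 and 143 CPM in COL (log2 change 4.6 ± 0.77, adjusted p = 0.0043), and its near-identical neighbour Hspa1b (chromosome 17, 34956436 to 34959238) at 17.2, 15.5 and 12.7 CPM in GF and 79.4, 339 and 185 CPM in COL (log2 change 3.74 ± 0.57, adjusted p = 0.0019). COL replicate 2 was the highest library of both. Without it the log2 fold changes were 3.83 and 3.14 and both stayed called. Hsph1, a co-chaperone, was at 18.5, 24.3 and 28.7 CPM in GF and 93.8, 153 and 94.3 CPM in COL (log2 change 2.24 ± 0.34, adjusted p = 0.00069). Atf3, a stress-induced transcription factor, was at 16.3, 15.3 and 16.4 CPM in GF and 36.1, 51.6 and 54.3 CPM in COL (log2 change 1.56 ± 0.25, adjusted p = 0.00037). Hsp90aa1 lost its call without COL replicate 2 (adjusted p = 0.082) and Jun without any of 3 libraries (up to 0.12). The immediate early genes Fos and Egr1 had overlapping groups and were not called. Fos was at 11.5, 20.1 and 15.1 CPM in GF and 21.7, 26.8 and 19.9 CPM in COL. Egr1 was at 20.6, 29.9 and 28.3 CPM in GF and 58.4, 14.8 and 16.1 CPM in COL. The part of tissue handling in the values of this list was not tested.

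Clock genes gave 2 rises and 4 falls among 16 tested. Tef, a clock-controlled transcription factor, was at 39.2, 61.7 and 56.6 CPM in GF and 22.9, 13.9 and 19.7 CPM in COL (log2 change -1.48 ± 0.29, adjusted p = 0.003). The related factor Dbp was at 7.85, 6.41 and 7.34 CPM in GF and 2.23, 0.443 and 0.91 CPM in COL (log2 change -2.57 ± 0.61, adjusted p = 0.012). Dbp was not called without COL replicate 2 or 3 (adjusted p up to 0.094) and was -3.31 without COL replicate 1. Cry1, a clock repressor, was at 19.5, 28.6 and 32.8 CPM in GF and 40.6, 58.2 and 70.5 CPM in COL (log2 change 1.06 ± 0.25, adjusted p = 0.013). Cry1 was not called without GF replicate 1, COL replicate 2 or COL replicate 3 (adjusted p up to 0.11). Nfil3, Nr1d2 and Hlf had log2 fold changes of 1.37, -1.4 and -2.01, and none of the 3 was called without GF replicate 1, GF replicate 2, COL replicate 2 or COL replicate 3 (adjusted p up to 0.11, 0.18 and 0.15). The core genes Arntl and Clock were not called (log2 fold changes 0.55 and -0.29). The labels give no hour of sampling, and its part in these values was not tested. Of 19 enteroendocrine genes tested 1 was called, near the 4.64% called among all genes tested. It was Cck, a hormone of these cells, at 16.8, 11.2 and 10.1 CPM in GF and 34.7, 24.6 and 45.3 CPM in COL (log2 change 1.48 ± 0.26, adjusted p = 0.00091). Plb1 (chromosome 5, 32232708 to 32366520), a brush border phospholipase outside the lists, was at 17.2, 5.06 and 3.47 CPM in GF and 61.3, 195 and 108 CPM in COL (log2 change 3.9 ± 0.80, adjusted p = 0.015). Plb1 was not called without GF replicate 2, GF replicate 3 or COL replicate 2 (adjusted p up to 0.088). It had a log2 fold change of 4.83 without GF replicate 1. Respiratory chain (17 tested), smooth muscle (16), nerve and glia (14) and matrix genes (17) had 0 calls in the edgeR test. Of them 1, 1, 4 and 4 had an unadjusted p under 0.05, and DESeq2 called 1 matrix gene lower. EdgeR on the 6 libraries alone called 3 smooth muscle genes and 1 matrix gene lower and 1 nerve or glia gene higher. With the replicate block in those libraries it called 5 and 2 lower and 1 higher. All 16 smooth muscle genes had fitted changes below 0, with a median of -0.34. Their summed level was 8713 to 8968 CPM in GF and 6752 to 7519 CPM in COL, and the part of tissue make-up in it was not tested.

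SPF mice of the same age carried a microbiota without a germ-free phase. COL and SPF ileum at 6 weeks differed in 3 genes higher and 10 lower in COL (0.0227% and 0.0756% of 13233), while SPF against the same GF libraries gave 578 higher and 440 lower (4.37% and 3.33%, together 7.69%). The 3 comparisons share libraries in pairs and are not independent of each other. Jchain was at 648, 617 and 677 CPM in SPF and thus lower in COL, which had 52.6, 58.2 and 28 CPM (log2 difference -3.81 ± 0.39, adjusted p = 0.00014). Tnfrsf17, the plasma cell survival receptor, was at 7.92, 11.1 and 11.2 CPM in SPF (-4.08 ± 0.56, adjusted p = 0.00027; -5.09 without COL replicate 1). Derl3, which serves protein quality control in secretory cells, was at 31.5, 25 and 26.3 CPM (-2.48 ± 0.32, adjusted p = 0.00014). For these 3 genes every SPF library was above every COL library. Cd74 was at 246, 201 and 182 CPM in SPF (-2.22 ± 0.33, adjusted p = 0.0063). H2-DMb1 was at 569, 645 and 516 CPM (-2.12 ± 0.24, adjusted p = 7.1e-05), so that H2-DMb1 in COL lay between GF and SPF. The lymphocyte genes Il2rb, Itgb7 and Selplg, the monocyte gene Ly6c2 and Ceacam10 were also lower in COL than SPF (log2 differences -2.77, -2.73, -1.93, -3.63 and -3.49). Cd74 was not called without COL replicate 2 or 3 (adjusted p up to 0.083), and Itgb7 not without COL replicate 3 (0.11). Selplg, Il2rb and Ceacam10 were not called without any single COL library (up to 0.18, 0.21 and 0.11) and some SPF libraries.

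The 3 genes higher in COL than SPF were Tfcp2l1, Apoa4 and Arg2. Tfcp2l1, an epithelial transcription factor, was at 27, 28.1 and 32.7 CPM in COL and 10.4, 10 and 8.87 CPM in SPF (1.58 ± 0.23, adjusted p = 0.00072). The apolipoprotein gene Apoa4 was at 283, 202 and 229 and 101, 82.6 and 109 CPM (1.29 ± 0.21, adjusted p = 0.0038). Arg2, a mitochondrial arginase, was at 241, 116 and 149 and 82, 80.7 and 93.2 CPM (0.98 ± 0.20, adjusted p = 0.036). Apoa4 was not called without SPF replicate 2 (adjusted p = 0.07), and Arg2 not without any single library other than COL replicate 2 (up to 0.3). In the genes that led the rise no difference was called: Reg3g was at 61882, 56763 and 27902 CPM in SPF (COL minus SPF 0.49 ± 0.48, adjusted p = 0.85). Nos2 was at 492, 394 and 170.0 CPM (-0.68 ± 0.46, adjusted p = 0.78). Irgm2 was at 122, 116 and 109 CPM (-0.51 ± 0.19, adjusted p = 0.5). Acot1, of the falls, was at 6.02, 3.34 and 10.8 CPM in SPF (-0.67 ± 0.34, adjusted p = 0.65). A p that misses the threshold does not show that these levels are alike. The heat shock gene Hspa1a, at 25.1, 21.2 and 10.5 CPM in SPF, had an SPF minus GF change of 1.6 ± 0.76 (adjusted p = 0.26), and its COL minus SPF difference was 3.0 ± 0.69 (adjusted p = 0.2).

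Mice colonized in the same week of life and sampled at 10 weeks, with their own germ-free controls, give a later stage with no shared library. There 675 genes were higher (5.1%) and 534 lower (4.04%) in COL than GF, together 9.14%. Of the 368 genes that rose at 6 weeks 188 also rose at 10 weeks (51.1%, and 27.9% of the 675), 352 had a positive change there and 0 fell. Of the 246 that fell, 161 also fell at 10 weeks (65.4%, and 30.1% of the 534), and 1 rose there, Arl5c, which was at 4.67, 0.298 and 1.2 CPM in GF and 0, 0 and 0 CPM in COL at 6 weeks, with few counts. Across all 13233 genes the changes at both ages had a Pearson correlation of 0.302, given as a description, since genes are not independent. The test of the difference itself between the ages called 19 genes (0.144%), 2 with a more positive and 17 with a more negative change at 6 weeks. The share with a more positive change, 10.5%, depended on single libraries: it was 41.4% without the 10-week COL replicate 1, 34.8% without the 6-week COL replicate 1 and 22.2% without the 6-week COL replicate 2.

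One of the 19 was Jchain: at 10 weeks it was at 61.3, 39.9 and 69.2 CPM in GF and 1142, 875 and 1262 CPM in COL (4.27 ± 0.39), and the change at 6 weeks minus that at 10 weeks was -4.5 ± 0.52 (adjusted p = 0.001). Cd74 was at 24, 17.3 and 17.9 CPM in GF and 395, 392 and 368 CPM in COL at 10 weeks, a difference between the ages of -3.53 ± 0.48 (adjusted p = 0.0028; -2.80 without the 6-week GF replicate 1). H2-DMb1 was at 41.2, 25.3 and 23 and 942, 632 and 479 CPM, a difference of -2.45 ± 0.35 (adjusted p = 0.0013). At 10 weeks the COL libraries of all 3 genes were clear of the GF libraries, whereas at 6 weeks only H2-DMb1 was. Some genes that had risen at 6 weeks had a larger change at 10 weeks: Irgm2 was at 10.7, 15.1 and 9.8 CPM in GF and 241, 204 and 198 CPM in COL at 10 weeks (difference between ages -1.5 ± 0.29, adjusted p = 0.023). Psmb9 was at 38.7, 34.3 and 35.8 and 318, 255 and 237 CPM (-1.48 ± 0.24, adjusted p = 0.0028). Gbp7 was at 10.3, 8.86 and 6.78 and 96.5, 107 and 76.3 CPM (-1.89 ± 0.31, adjusted p = 0.0028). The Irgm2 difference was not called without any of 6 single libraries, among them GF replicate 1 of either age (adjusted p up to 0.13 over single libraries).

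**Figure D4:**
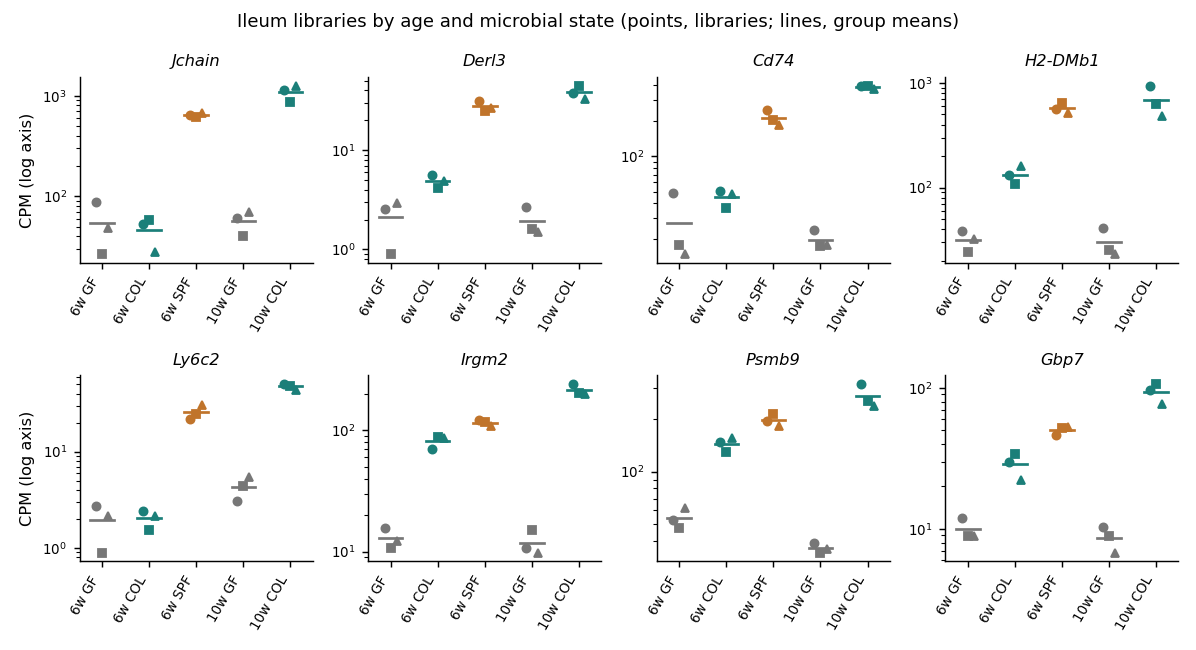
CPM (log axis, own scale in each panel) of 8 genes in GF, COL and SPF ileum at 6 weeks and GF and COL ileum at 10 weeks; points are libraries, their shape the replicate number, and lines group means. Jchain, Cd74 and Ly6c2 at 6 weeks lie in the GF range or near it in COL and far above it in SPF and in 10-week COL, while Irgm2, Psmb9 and Gbp7 are already above GF in 6-week COL.

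More genes of the immune lists were called at 10 weeks than at 6 weeks. Among all genes tested the share called higher also grew, from 2.78% at 6 weeks to 5.1% at 10 weeks. At 10 weeks 14 of 20 T cell and intraepithelial lymphocyte genes were higher in COL (0 at 6 weeks), 9 of 13 plasma cell and IgA genes (3), 7 of 13 MHC class II genes (2), 9 of 21 macrophage genes (1) and 22 of 24 interferon-γ targets (12). The median log2 fold changes of these lists at 10 weeks were 3.36, 3.54, 2.98, 1.47 and 3.0, in the order given. Without the 6-week GF replicate 1 the counts at 6 weeks were 2, 3, 5, 2 and 12, in the same order. Antimicrobial genes gave 7 rises at 10 weeks (8 at 6 weeks) with a median of 1.33 (2.64), and Paneth cell genes 2 (7) with a median of 0.70 (1.28). PPARα and fatty acid oxidation genes gave 10 falls at each age. These counts set 2 sets of calls side by side; the differences between the ages that passed their own test are the 19 genes above. Of these, 2 of 24 interferon-γ targets, 2 of 17 MHC class I, 2 of 13 MHC class II, 2 of 13 plasma cell genes and 1 of 21 macrophage genes were list members. At 10 weeks the GF libraries also held less RNA of follicular B cell genes (94.5, 4.43 and 10.6 CPM summed) than the COL libraries (167.4, 568.0 and 236.0 CPM), and the part of lymphoid tissue in these values was not tested.

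**Figure D5:**
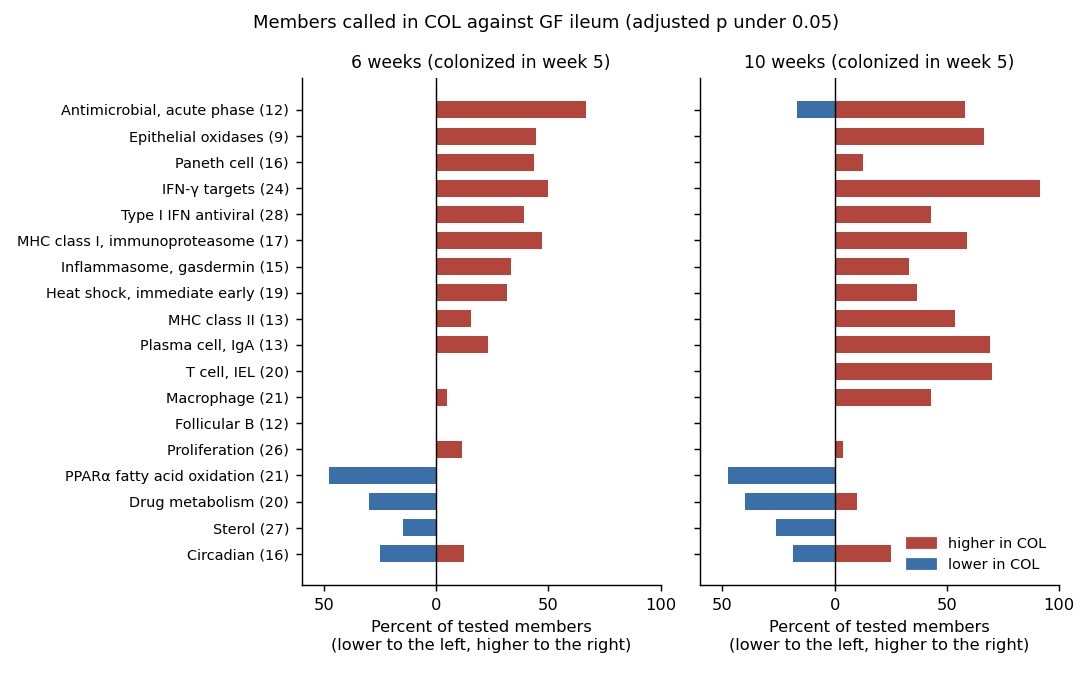
Percent of the tested members (their number in parentheses) of 18 gene lists that were called higher (right) or lower (left) in COL than GF ileum at 6 weeks (left panel) and 10 weeks (right panel). T cell and intraepithelial lymphocyte genes have 0 of 20 called at 6 weeks and 14 of 20 at 10 weeks, while PPARα and fatty acid oxidation genes have 10 of 21 lower at both ages. Among all genes tested 2.78% were higher and 1.86% lower at 6 weeks, and 5.1% and 4.04% at 10 weeks. The lists were chosen with earlier results of these data known.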

How the data were processed

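RNA of whole terminal ileum had been made into 3′ tag libraries with the QuantSeq kit and read on Ion Torrent, per the labels' protocols. The authors deposited whole-number counts per gene symbol. Trimmomatic 0.36, FastQC 0.11.5, STAR 2.5.3a, HTSeq and build mm10 are named per the submitters' processing notes; which HTSeq release, strand mode and gene annotation were used is not given in the sources used here. Each file ends in 5 summary lines of the counter, which were left out. Of the reads listed, 47.2 to 53.6% were assigned to a gene, 29.6 to 33% aligned to several places and 12.7 to 21.2% lay outside genes, so near-identical genes are undercounted and their split is uncertain.

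From the counts, edgeR 4.0.16 (R 4.3.3, limma 3.58.1) was run on all 18 ileum libraries with 6 group means, TMM scaling, its filter on low counts by group, and robust quasi-likelihood fits, so that all groups share an estimate of the spread (common biological coefficient of variation 0.234). The standard error is the absolute log2 fold change divided by the square root of F. The test was checked on simulated counts. COL and SPF, and COL and GF, were compared at 6 weeks, and the COL minus GF change at 6 weeks was compared with that at 10 weeks by an interaction contrast. Within each group the libraries differed beyond counting noise (ratio of chi-square to degrees of freedom 9.79 or higher). A group with no read of a gene was set to 3 counts in all for a lower bound, and ratios against 1 to 3 counts carry exact 95% intervals that cover counting error only. DESeq2 1.42.0, no filter, another scaling, fewer libraries and a replicate block were alternatives.

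The 39 gene lists hold 660 genes, 658 of them in the files; members and lists were chosen with earlier results of these data known. Genes were named by rule: the 15 largest called rises and falls among genes whose groups did not overlap and whose mean level was 3 or more in log2 CPM (8 each for the other comparisons), and from each list its first 4 genes and the 6 with the smallest p. Further list members, Arl5c and Gbp2b were named after their values were seen. Gene positions are those of GENCODE vM21 on mm10, where 24160 of 24746 symbols matched a single gene. Promoter windows are from RefSeq. The 12 colon libraries were not used. Some genes are not reported here and are left out of the text and the plots of single genes, while the counts and medians of their lists include them.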

Additional observations from a re-analysis of the deposited data

Results flagged for a closer look

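The COL minus GF change at 6 weeks differed from that at 10 weeks, by edgeR's interaction test over all genes, in 19 genes; the values are the log2 change at 6 weeks minus that at 10 weeks. It was lower at 6 weeks for the plasma cell genes Jchain (-4.50) and Derl3 (-3.11), for the class II genes Cd74 (-3.53) and H2-DMb1 (-2.45) and for the class I genes Psmb9 (-1.48) and H2-K1 (-1.24). The interferon-responsive GTPases Irgm2 (-1.50) and Gbp7 (-1.89) were also lower. So were genes of lymphocytes and their trafficking, Itgb7 (-4.46), Selplg (-3.90), Itga4 (-2.72) and Cytip (-2.48), and the monocyte gene Ly6c2 (-3.32). Of these, Cytip fell at 6 weeks (log2 change -1.69, adjusted p = 0.0027 by edgeR) and was not called at 10 weeks (0.79, adjusted p = 0.12). Ceacam10 (-6.60), Cmah (-3.85), Jdp2 (-3.03) and the phospholipase gene Pla2g16 (-1.79) complete the 17. Sgk1, a kinase that regulates sodium transport, and Hook2, a microtubule linker, were higher at 6 weeks (1.38 and 1.18). Itgb7, Selplg, Itga4, Ly6c2, Cmah, Jdp2 and H2-K1 were named after their values were seen. H2-K1, Itga4, Cmah, Irgm2 and Cytip lost the call without at least 3 single libraries each (adjusted p up to 0.16, 0.18, 0.18, 0.13 and 0.063). Without the 6-week GF replicate 1, which held more B and T cell genes than the other two, the value was -2.80 for Cd74, -5.43 for Ceacam10, -3.29 for Selplg and -3.18 for Cmah; the part of those cells in these values was not tested.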

How the results depend on the processing

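Leaving out 1 library of the groups compared gave 176 to 452 genes higher and 121 to 299 lower in COL than GF at 6 weeks, 8 to 18 that differed between COL and SPF, and 15 to 31 whose change differed between the ages, against 368, 246, 13 and 19. Without both germ-free libraries numbered 1, a setting chosen after seeing the data, 239 were higher and 150 lower. DESeq2 gave 64 genes between COL and SPF and 134 between the ages, and a fit of only the groups compared gave 66 and 129. No filter on low counts gave 50 between the ages. The share of called genes that were higher was 35.9% in DESeq2 against 23.1% for COL and SPF, and 10 to 37.5% leaving out 1 library. For the ages it was 23.1% in DESeq2, 28% without a filter and 30.2% in a fit of only the groups compared, against 10.5%, and 6.45 to 41.4% leaving out 1 library; the cause was not tested. Deviations from the group mean had correlations of 0.0818, -0.0426 and -0.0584 between libraries with the same number, and -0.19 to 0.235 between unlike numbers. With 3 libraries a group these deviations are tied to each other. They cannot tell whether the numbers pair the samples. With the replicate number as a block, 328 genes were higher and 228 lower, 17 differed between COL and SPF and 29 between the ages. With the block in only the 6 libraries, 525 were higher and 426 lower. No named gene changed direction past the threshold in any setting run. For COL minus GF at 6 weeks, 3866 values stayed on their side of the threshold over all settings, 213 lost it and 157 gained it. For the genes called between COL and SPF or between the ages, 419 values stayed and 66 lost it. At these depths genes with few reads, such as Ifng, could not be compared.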

Other observations

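Genes outside the epithelial defence and metabolic lists also differed, all at low levels in GF. The neighbouring genes Gml and Gml2, named after their values were seen, had 2 counts each in GF and 212 and 252 in COL, ratios of 125 (95% counting interval 34.2 to 1040) and 149 (40.7 to 1230). Prss27, a serine protease, had 3 counts in GF and 89 in COL, a ratio of 35 (11.6 to 173). Among 7 tested tuft and mast cell genes 1 rose and 1 fell. Mcpt2, a protease of mucosal mast cells, was at 1.06, 0.596 and 0.801 CPM in GF and 3.65, 3.76 and 11.1 CPM in COL (log2 change 2.93 ± 0.82, adjusted p = 0.0468), and Ltc4s, an enzyme of leukotriene synthesis, at 5.3, 9.53 and 7.88 CPM in GF and 1.83, 0.443 and 3.18 CPM in COL (log2 change -2.0 ± 0.56, adjusted p = 0.035); Mcpt2 was not called without any single GF library, COL replicate 2 or COL replicate 3 (adjusted p up to 0.26), and Ltc4s not without GF replicate 2, GF replicate 3, COL replicate 1 or COL replicate 2 (up to 0.16), with a log2 fold change of -2.70 without COL replicate 3.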
